A study of Mus musculus with 9 samples.

Results

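Interleukin receptor genes were followed in mature 3T3-L1 adipocytes, fat cells made in culture from a mouse preadipocyte line, after knockdown of the transcription factor Ebf1. Members were the genes whose single symbol in the platform's probe annotation begins with Il, a number and r, and each gene was represented by its brightest probe set (highest mean of the 9 arrays). This gave 36 genes of 18193 with a single symbol. Il1rn, which encodes a secreted antagonist and no receptor, is among them by its name. The comparison set 3 arrays of cells with the lentiviral scrambled control beside 3 arrays with shEbf1 Hairpin 1 and 3 with shEbf1 Hairpin 2. All groups, controls included, went through 3 to 4 rounds of lentiviral infection and at least 8 days in 5 µg/ml puromycin, which kills cells without the virus. The titles call the arrays of a group repeats without naming separate cultures. The p-values here set group differences only against the spread between arrays within groups, and that spread may be technical.

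Interleukin receptors are cell-surface proteins that pair up as subunits when a cytokine binds. Receptors of the IL-1 and IL-17 families pass the signal through adaptor proteins and ubiquitin ligases to NF-kappa B and MAP kinases, while class I and class II cytokine receptors use JAK kinases and STAT factors. In fat, IL-1, IL-6 and IL-17 are known as cytokines that act on adipocyte differentiation, lipolysis and insulin response.

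Of 7 adipocyte markers measured, Adipoq, Fabp4 and Lpl read 14.82, 14.89 and 14.71 (log2, scrambled mean), Lep lay below the signal filter, and against scrambled Pparg alone was called, lower by 0.25 and 0.56 under hairpins 1 and 2. Between the hairpins Fabp4 was also called, higher under hairpin 2 by 0.079 (limma adjusted p = 0.0401). The targeted gene Ebf1 fell by 0.75 log2 units with hairpin 1 and by 1.25 with hairpin 2 (limma adjusted p = 0.000102 and 2.98e-07). Its other probe sets above the filter level differed by -0.46, -1.10 and -1.03 with hairpin 1 and by -1.07, -1.62 and -1.30 with hairpin 2. The smallest of these, -0.46, was not called (limma adjusted p = 0.0501 over all probe sets). Ptprc, Adgre1 and Itgam, which mark leukocytes and macrophages, read 4.76 to 5.28 on scrambled arrays, below the filter. Of the 7 macrophage markers, 4 passed the filter, and the highest read 9.02 on scrambled arrays. Against scrambled, Cd68 alone was called, higher by 1.18 under hairpin 2. The T cell marker Cd3e read 6.33, and none of that list was called. Markers of preadipocytes and fibroblasts moved with the groups: the log2 of their summed signal was 11.27 to 11.57 on scrambled arrays, 12.16 to 12.38 with hairpin 1 and 12.49 to 12.59 with hairpin 2. In that list Pdgfra and Thy1 rose with both hairpins, Dlk1 rose with hairpin 1 and fell with hairpin 2, and Cd34 lay below the filter. The part of these markers in the receptor results was not tested. In such bulk RNA, fewer cells of a type and less RNA per cell cannot be told apart.

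Only genes whose mean over the 9 arrays reached 5.72 on the log2 scale, the 30th percentile of all genes, entered the test, and 16 of the 36 genes did. The other 20 had values between 4.33 and 5.91 on every array. They were the IL-1 family genes Il1r2, Il1rapl1, Il1rapl2, Il18r1 and the antagonist Il1rn; Il17rb and Il17rd; Il2ra, Il7r and Il9r; Il5ra; Il13ra1; Il12rb1, Il12rb2 and Il27ra; and Il10ra, Il20ra, Il20rb, Il22ra1 and Il22ra2. In a fit without the filter, none of these 20 was called in any contrast (limma, lowest adjusted p = 0.092), and 1 had an unadjusted p below 0.05 in each contrast. Against scrambled, hairpin 1 differences lay between -0.20 and 0.10, and those of hairpin 2 between -0.23 and 0.10.

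**Figure D1:**
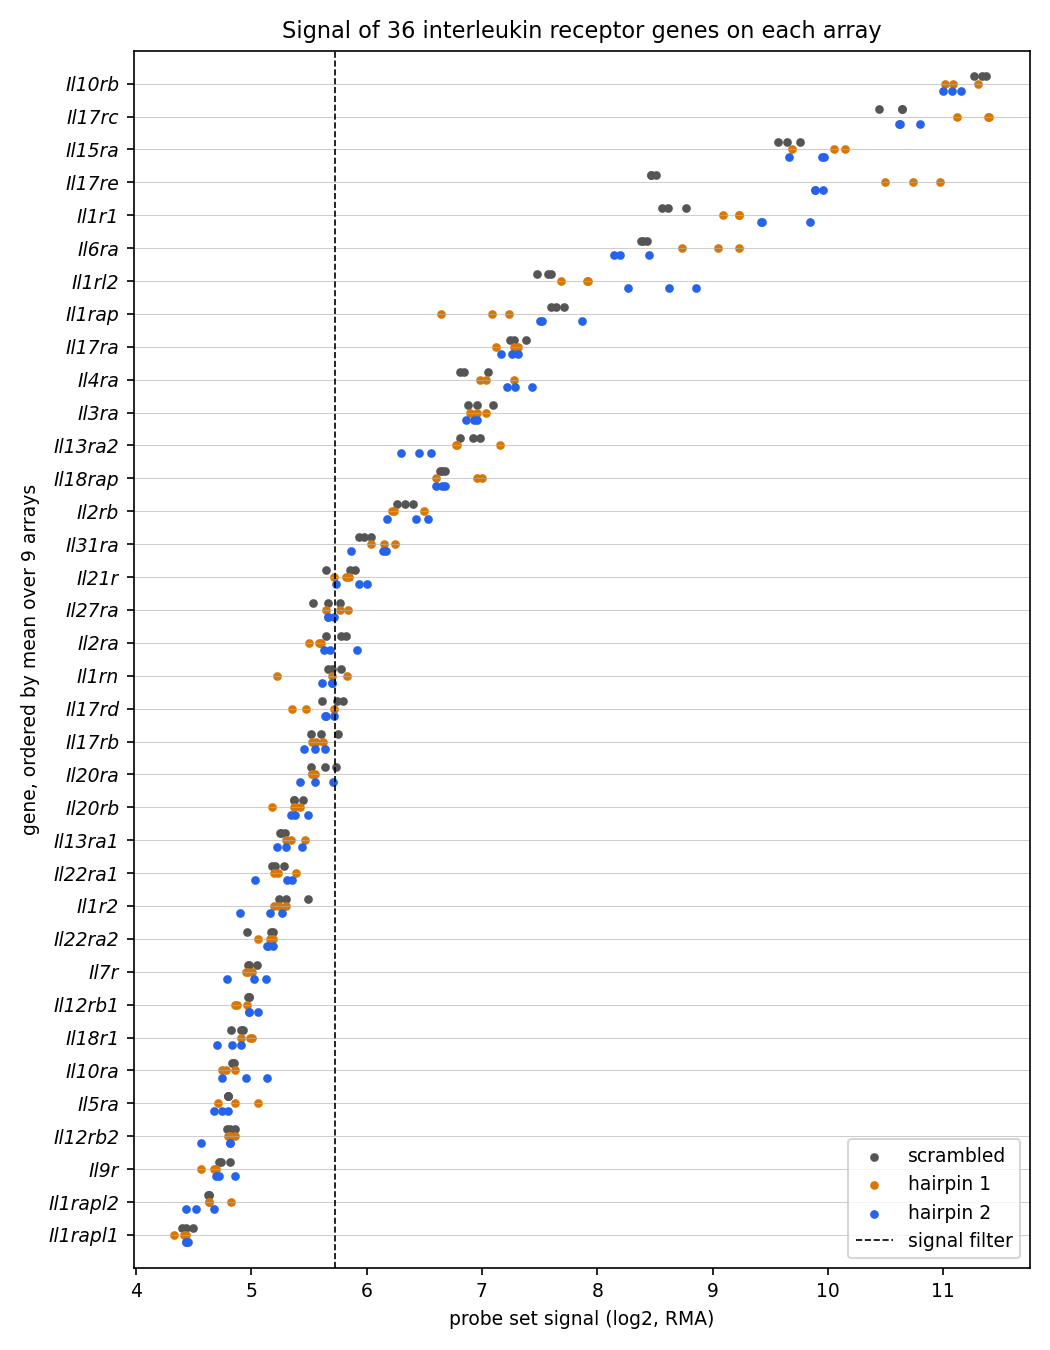
Signal of the 36 interleukin receptor genes (log2, RMA) on each of the 9 arrays; each point is an array, colours are the groups, the dashed line is the signal filter at 5.72, and genes are ordered by their mean, which does not compare amounts between genes. The hairpin points of Il17re lie apart from its scrambled points, while the 20 genes with means below the filter differ from scrambled by -0.23 to 0.10.

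A gene was called when its limma p-value, adjusted by the Benjamini-Hochberg method over 12735 genes, was below 0.05. With hairpin 1, 4 interleukin receptor genes rose (Il17re, Il17rc, Il1r1 and Il6ra) and 1 fell (Il1rap), 5 of 16 tested. Over all genes tested, 33% were called with hairpin 1, 23.7% higher and 9.23% lower. With hairpin 2, 4 rose (Il17re, Il1r1, Il1rl2 and Il4ra) and 2 fell (Il13ra2 and Il10rb), beside 34.8% of all genes, 21.5% higher and 13.3% lower. The members were thus called about as often as other genes, 31.2% with hairpin 1 and 37.5% with hairpin 2. Their median difference was 0.18 with hairpin 1 and 0.058 with hairpin 2, against 0.067 and 0.024 over all genes. When all arrays were set to equal medians, the all-gene split with hairpin 1 went from 3023 higher and 1176 lower to 2031 and 2086, and with hairpin 2 from 2740 and 1690 to 2357 and 2373. The members then split into 4 higher and 2 lower with each hairpin, the added call being a fall of Il10rb with hairpin 1.

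Il17re rose with both hairpins on all 3 of its probe sets, by 0.69 to 2.25 log2 units with hairpin 1 and by 0.33 to 1.43 with hairpin 2. IL-17RE forms, with the shared subunit IL-17RA, the receptor for IL-17C, and is best known from epithelial cells. On its chosen probe set, Il17re read 8.47, 8.51 and 8.47 (log2) on the scrambled arrays, 10.50, 10.97 and 10.74 with hairpin 1, and 9.88, 9.96 and 9.88 with hairpin 2. All hairpin arrays lay above all scrambled arrays, and every hairpin 1 array lay above every hairpin 2 array. The rise was 4.77-fold with hairpin 1 (log2 difference 2.25, SE 0.104, limma adjusted p = 3.27e-10) and 2.69-fold with hairpin 2 (1.43, adjusted p = 2.29e-08). The direct difference, hairpin 2 minus hairpin 1, was -0.83 (adjusted p = 2e-05). Ebf1 itself was lower under hairpin 2 than under hairpin 1 by 0.50 (adjusted p = 0.00351), so the hairpin with the smaller fall in Ebf1 had the larger rise in Il17re. The size of this Ebf1 difference depends on the probe set. On its other probe sets above the filter level it was -0.61, -0.52 and -0.27 (limma adjusted p = 0.0124, 0.00943 and 0.341 over all probe sets). Of 4 epithelial markers, Epcam rose by 0.41 under hairpin 1, Krt18 fell by 1.31 and 1.41, Krt8 was not called and Cdh1 read 4.71, below the filter. The log2 of their summed signal was 8.51 to 8.62 on scrambled arrays, 8.35 to 8.51 under hairpin 1 and 8.27 to 8.38 under hairpin 2, and the part of these markers in the Il17re result was not tested.

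The rise itself decided which probe set stood for Il17re. On scrambled arrays a second probe set was brighter, with a mean of 8.86 against 8.48, and the chosen one had the highest mean of the 9 arrays only through the hairpin arrays. Among the tested members this held for Il17re only. The chosen one carries the suffix that Affymetrix gives to probe sets whose probes match more than a single transcript. The second, built on the same cDNA accession, read 8.65, 8.91 and 9.03 on the scrambled arrays, 9.57, 9.42 and 9.67 under hairpin 1 and 9.25, 9.17 and 9.17 under hairpin 2. Its rise was 1.61-fold with hairpin 1 and 1.26-fold with hairpin 2 (limma adjusted p = 0.000448 and 0.0447 over all probe sets). The third probe set rose from a mean of 6.17 by 0.98 and 0.58 (adjusted p = 3.11e-05 and 0.00178). On each of the 3 probe sets hairpin 2 lay below hairpin 1, with differences of -0.83, -0.36 and -0.40 in this order (adjusted p = 8.69e-05, 0.0416 and 0.0317). With the mean of the 3 probe sets the rise was 1.31 with hairpin 1 and 0.78 with hairpin 2, so the fold depends on the probe set. On the second probe set the rise of 0.69 with hairpin 1 lies below that of Il17rc.

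Il17rc, whose product pairs with IL-17RA in the receptor for IL-17A and IL-17F, rose with hairpin 1. It read 10.64, 10.45 and 10.65 on the scrambled arrays, 11.12, 11.40 and 11.39 under hairpin 1 and 10.63, 10.80 and 10.62 under hairpin 2. The hairpin 1 arrays lay above all others, and those of hairpin 2 overlapped the scrambled ones. The rise with hairpin 1 was 1.65-fold (0.72, SE 0.0916, limma adjusted p = 2e-05), and 0.32 with the mean of both its probe sets, of which the other reads 4.75. With hairpin 2 the difference was 0.10 (95% interval -0.090 to 0.30, adjusted p = 0.434), and hairpin 2 minus hairpin 1 was -0.62 (adjusted p = 0.000101).

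The shared subunit gene Il17ra was called under neither hairpin. Its arrays read 7.38, 7.25 and 7.28 on the scrambled arrays, 7.12, 7.28 and 7.31 under hairpin 1 and 7.27, 7.31 and 7.16 under hairpin 2. The groups overlapped, with differences of -0.062 (95% interval -0.25 to 0.13, limma adjusted p = 0.641) and -0.053 (-0.24 to 0.14, adjusted p = 0.714). Il17rb, which encodes the IL-25 receptor subunit, read 5.75, 5.52 and 5.61 on the scrambled arrays, 5.56, 5.53 and 5.62 under hairpin 1 and 5.64, 5.55 and 5.45 under hairpin 2. Il17rd, a family member also known as a restraint on growth factor signalling, read 5.79, 5.61 and 5.74, then 5.71, 5.36 and 5.47, then 5.65, 5.72 and 5.64. Both have means below the filter, and their groups overlap.

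**Figure D2:**
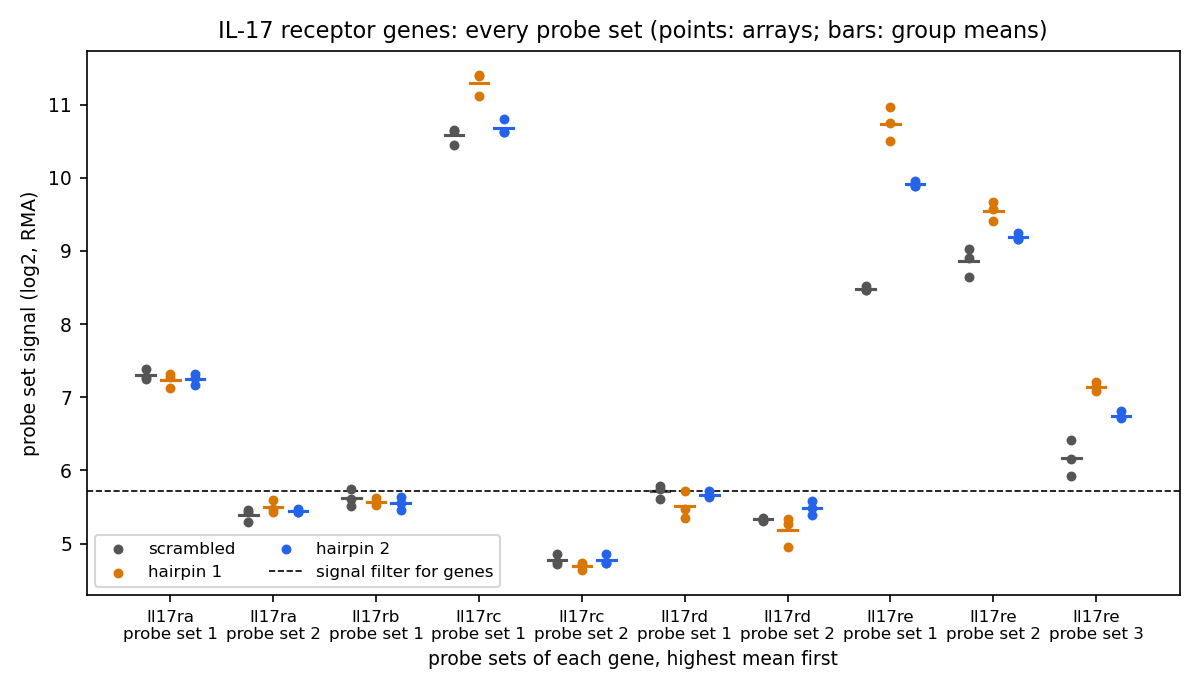
Signal (log2, RMA) of every probe set of the 5 IL-17 receptor genes, highest mean first within a gene; points are arrays, short bars are group means, and the dashed line marks the filter at 5.72. All 3 Il17re probe sets are highest with hairpin 1, by 2.25, 0.69 and 0.98 log2 units over scrambled from left to right, and Il17ra is level.

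Il17re and Il17rc are neighbours on the chromosome, in the order Rpusd3, Cidec, Jagn1, Il17re, Il17rc, Creld1, Prrt3 among genes with a probe set (RefSeq gene table, assembly GRCm38.p6). Of the 6 genes beside Il17re, 4 were called higher with hairpin 1, against 23.7% of all genes. With hairpin 2, 1 was called higher and 2 lower. Rpusd3, a pseudouridine synthase gene, read 9.55 ± 0.029 (SD, n = 3, as for the others) on the scrambled arrays, 10.29 ± 0.079 under hairpin 1 and 9.78 ± 0.087 under hairpin 2. It rose by 0.74 with hairpin 1 (limma adjusted p = 4.85e-06). Its rise of 0.23 with hairpin 2 (adjusted p = 0.0388) was lost at equal array medians (0.17, adjusted p = 0.0665) and without any of the 3 scrambled arrays (0.133, 0.0959 and 0.0844) or hairpin 2 repeat 2 or 3 (0.15 and 0.0652). Jagn1, which encodes a protein of the endoplasmic reticulum, rose by 0.31 with hairpin 1 and fell by 0.30 with hairpin 2 (adjusted p = 0.00204 and 0.00226). Cidec, a lipid droplet protein gene of fat cells, differed by -0.033 with hairpin 1 (adjusted p = 0.695) and fell by 0.25 with hairpin 2 (adjusted p = 0.00255). Creld1 rose by 0.28 with hairpin 1 (adjusted p = 0.0469), a call lost at equal array medians (0.18, adjusted p = 0.161) and without scrambled repeat 2 or 3 (0.137 and 0.183), hairpin 1 repeat 2 or 3 (0.17 and 0.111) or hairpin 2 repeat 1 (0.059). Prrt3, at the other end from Rpusd3, was called in no contrast. All 6 genes had a lower mean under hairpin 2 than under hairpin 1, and 5 of these differences were called, against 17.4% of all genes called lower. That of Creld1 (-0.28, adjusted p = 0.049) was lost at equal array medians (0.0687) and without any single array except hairpin 1 repeat 1 or hairpin 2 repeat 3, and that of Cidec (-0.21) without hairpin 2 repeat 1 (0.0559).

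**Figure D3:**
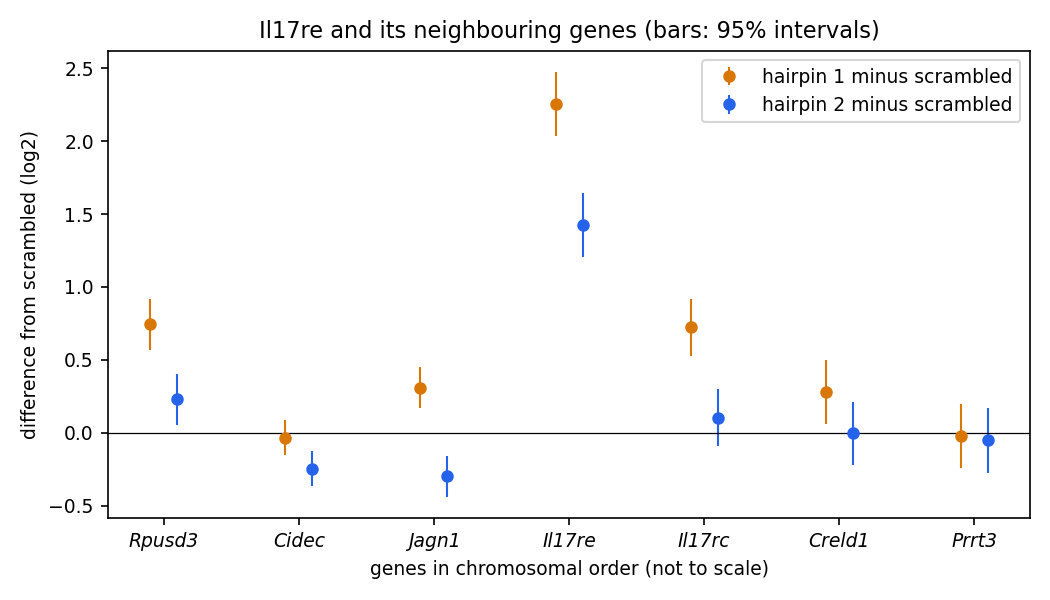
Difference from scrambled (log2) of Il17re and the 3 genes on each side, in chromosomal order and not to scale; points are limma estimates for hairpin 1 and hairpin 2 and bars are 95% intervals. Hairpin 1 exceeds hairpin 2 at every gene, with Il17re at 2.25 and 1.43 on the chosen probe set. On its probe set that is brighter on scrambled arrays (not plotted) Il17re rose by 0.69 and 0.33, and the hairpin 1 value lies below Rpusd3 (0.74) and Il17rc (0.72).

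Because Ebf1 is a DNA-binding factor, the promoters of the 4 genes that rose with hairpin 1 are shown to let their sequence be read beside their values. They are RefSeq windows of GRCm38.p6, 250 bases before to 50 after a start, written 5′ to 3′ along the gene, with capitals marking CCCNNGGG, the core of the palindrome that EBF proteins bind.
Il17re, chr6:113458521-113458820, plus strand: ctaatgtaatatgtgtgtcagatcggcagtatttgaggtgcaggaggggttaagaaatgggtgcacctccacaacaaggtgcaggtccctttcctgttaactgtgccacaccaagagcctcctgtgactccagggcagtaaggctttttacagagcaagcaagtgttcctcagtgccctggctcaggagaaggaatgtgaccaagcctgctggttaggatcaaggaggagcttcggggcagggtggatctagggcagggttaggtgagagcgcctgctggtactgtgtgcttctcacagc
Il17rc, chr6:113471205-113471504, plus strand: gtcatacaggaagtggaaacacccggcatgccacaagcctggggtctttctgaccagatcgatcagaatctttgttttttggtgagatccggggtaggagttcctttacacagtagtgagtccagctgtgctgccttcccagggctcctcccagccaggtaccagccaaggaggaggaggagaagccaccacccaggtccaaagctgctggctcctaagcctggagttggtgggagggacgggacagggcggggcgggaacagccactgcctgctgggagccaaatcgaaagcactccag
Il1r1, chr1:40266336-40266635, plus strand: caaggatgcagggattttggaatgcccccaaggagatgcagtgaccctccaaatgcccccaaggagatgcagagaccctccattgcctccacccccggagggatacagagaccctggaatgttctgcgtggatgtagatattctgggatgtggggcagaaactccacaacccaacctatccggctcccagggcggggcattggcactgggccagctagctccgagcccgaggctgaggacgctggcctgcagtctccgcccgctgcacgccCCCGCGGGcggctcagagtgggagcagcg
Il6ra, chr3:89913147-89913446, minus strand: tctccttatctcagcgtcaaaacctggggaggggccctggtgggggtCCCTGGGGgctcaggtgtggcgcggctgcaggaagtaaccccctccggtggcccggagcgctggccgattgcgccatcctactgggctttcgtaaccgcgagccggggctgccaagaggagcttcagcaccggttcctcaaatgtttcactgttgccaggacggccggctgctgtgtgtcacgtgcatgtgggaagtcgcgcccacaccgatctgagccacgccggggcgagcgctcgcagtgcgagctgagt
CCCNNGGG reads the same on either strand. RefSeq windows were found for 29 of the 36 members, 35 windows in all. CCCNNGGG occurred in 5 of the 35, against 13.7% of all 32851 windows of this length: those of Il1r1, Il6ra, Il12rb2, Il17rb and Il20ra. The full palindrome, the same letters with T before and A after them, occurred in 0 of the 35 windows, against 0.904% of all. In Il1r1 the match starts at base 272 of the window shown and was not found in its other listed start, and in Il6ra it starts at base 48. The windows of Il17re and Il17rc do not hold it. This covers only these letters in these windows, and a match is not a binding site.

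Among IL-1 family receptors, Il1r1 rose with both hairpins. IL-1R1 is the signalling receptor for IL-1. Il1r1 read 8.77, 8.56 and 8.62 on the scrambled arrays, 9.09, 9.23 and 9.23 under hairpin 1 and 9.42, 9.85 and 9.43 under hairpin 2, so the 3 groups did not overlap. The rise was 1.45-fold with hairpin 1 (0.54, SE 0.113, limma adjusted p = 0.00176) and 1.89-fold with hairpin 2 (0.92, adjusted p = 9.19e-06). The second probe set of Il1r1 reads 4.44, below the filter level, and differed by 0.0086 and -0.063. With the mean of both the rise was 0.27 and 0.43 (adjusted p = 0.0317 and 0.00199). Hairpin 2 exceeded hairpin 1 by 0.38 (adjusted p = 0.019), a call lost without hairpin 2 repeat 2 (0.24, adjusted p = 0.0987) and with that mean (0.15, adjusted p = 0.227).

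Il1rap, which encodes the co-receptor that IL-1R1 needs to signal, moved the other way with hairpin 1. It read 7.60, 7.71 and 7.64 on the scrambled arrays, 7.23, 6.64 and 7.09 under hairpin 1 and 7.53, 7.50 and 7.87 under hairpin 2. The hairpin 1 arrays lay below all others, a fall of 1.58-fold (-0.66, SE 0.135, limma adjusted p = 0.0014). With hairpin 2 the difference was -0.019 (95% interval -0.31 to 0.27, adjusted p = 0.942). Only 1 of the 5 probe sets of Il1rap, the chosen one, was called with hairpin 1. Another read 7.13 on scrambled arrays and differed by -0.031 with hairpin 1 (adjusted p = 0.911 over all probe sets), and with the mean of all 5 the difference was -0.17 (adjusted p = 0.0608).

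Il1rl2, the gene of the IL-36 receptor, rose with hairpin 2. It read 7.60, 7.58 and 7.47 on the scrambled arrays, 7.91, 7.92 and 7.69 under hairpin 1 and 8.63, 8.27 and 8.85 under hairpin 2. The 3 groups did not overlap. The rise with hairpin 2 was 2.05-fold (1.03, SE 0.125, limma adjusted p = 7.96e-06), and 0.57 with the mean of both probe sets. The chosen probe set carries the same multiple-transcript suffix as that of Il17re. The other read 5.36 on scrambled arrays, below the filter level, and differed by 0.010 and 0.099 with hairpins 1 and 2. Neither was called (limma adjusted p = 0.958 and 0.509 over all probe sets). With hairpin 1 the difference was 0.29 (adjusted p = 0.088), which passed without hairpin 2 repeat 2 or 3 (adjusted p = 0.033 and 0.0481), and hairpin 2 exceeded hairpin 1 by 0.74 (adjusted p = 0.000341). Il1r1 and Il1rl2 are adjacent protein-coding genes in a chromosomal cluster that also holds Il1r2, Il18r1 and Il18rap. Il1r2, a decoy receptor, and Il18r1 have means below the filter, and Il18rap, the IL-18 co-receptor gene, did not pass. Il18rap differed by 0.20 with hairpin 1 (adjusted p = 0.161), and without hairpin 1 repeat 1, the array with 6.60 against 6.96 and 7.0, it passed (0.32, adjusted p = 0.00807).

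Of the class I receptors, Il6ra rose with hairpin 1. It encodes the IL-6 binding subunit, which signals through the shared chain gp130. Il6ra read 8.39, 8.38 and 8.43 on the scrambled arrays, 8.73, 9.05 and 9.23 under hairpin 1 and 8.15, 8.45 and 8.19 under hairpin 2. All hairpin 1 arrays lay above the rest, a rise of 1.52-fold (0.60, SE 0.118, limma adjusted p = 0.00105). The other probe set of Il6ra, at 6.99 on scrambled arrays, was not called. It differed by 0.22 with hairpin 1 and by -0.23 for hairpin 2 minus hairpin 1 (limma adjusted p = 0.203 and 0.205 over all probe sets). On the chosen probe set the results were as follows. With hairpin 2 the difference was -0.14 (95% interval -0.39 to 0.11, adjusted p = 0.417), and hairpin 2 minus hairpin 1 was -0.74 (adjusted p = 0.000202), or -0.48 with the mean of both probe sets. The gp130 gene Il6st fell by 0.27 with hairpin 2 (adjusted p = 0.0293), a call lost without scrambled repeat 1 or 2 (0.10 and 0.11) or hairpin 2 repeat 1 or 2 (0.0866 and 0.15). The ligand gene Il6 fell by 0.99 with hairpin 1 (adjusted p = 3.43e-05) and by 0.49 with hairpin 2 (adjusted p = 0.00881, and 0.0569 without scrambled repeat 1).

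Il4ra and Il13ra2 bind overlapping cytokines and moved in opposite directions with hairpin 2. Il4ra, a signalling subunit for IL-4 and IL-13, read 7.05, 6.84 and 6.81 on the scrambled arrays, 7.03, 6.99 and 7.28 under hairpin 1 and 7.22, 7.44 and 7.29 under hairpin 2. It rose 1.33-fold with hairpin 2 (0.42, SE 0.104, limma adjusted p = 0.00521), its hairpin 2 arrays lying above all scrambled ones; the call was lost with the mean of all its probe sets (0.20, adjusted p = 0.0529). Il13ra2, a receptor for IL-13 regarded mainly as a decoy, read 6.93, 6.81 and 6.98, then 6.78, 6.77 and 7.16 with hairpin 1, and 6.3, 6.46 and 6.56 with hairpin 2. The hairpin 2 arrays lay below all others, a fall of 1.38-fold (-0.47, adjusted p = 0.00345), and hairpin 2 minus hairpin 1 was -0.47 (adjusted p = 0.00482, and -0.72 with array quality weights). Il13ra1, the other IL-13 receptor gene, has a mean below the filter.

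Among the members, Il10rb was the only tested class II receptor. It encodes a subunit shared by the receptors for IL-10, IL-22 and the lambda interferons. Il10rb read 11.27, 11.34 and 11.37 on the scrambled arrays, 11.02, 11.30 and 11.09 under hairpin 1 and 11.00, 11.16 and 11.08 under hairpin 2. The fall with hairpin 2 was small (-0.25, SE 0.0802, limma adjusted p = 0.0246). It was lost without scrambled repeat 2 or 3 (adjusted p = 0.0782 and 0.0941), hairpin 2 repeat 1 or 3 (0.108 and 0.0625), or with the mean of both probe sets (0.0596). With hairpin 1 the difference was -0.19 (adjusted p = 0.0834), and it passed without hairpin 1 repeat 2 (0.0126).

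The other 7 tested members were called in no contrast: Il15ra, Il17ra, Il18rap, Il21r, Il2rb, Il31ra and Il3ra. Their differences from scrambled ran from -0.062 to 0.31. The upper end is Il15ra, the IL-15 binding subunit gene, with 9.57, 9.76 and 9.64 on scrambled arrays and 9.69, 10.14 and 10.05 with hairpin 1. That difference of 0.31 missed the threshold (95% interval 0.057 to 0.56, limma adjusted p = 0.0567) and passed without hairpin 1 repeat 1 (0.44, adjusted p = 0.00278) or hairpin 2 repeat 1 (0.0495). Il18rap also passed for hairpin 2 minus hairpin 1 without hairpin 1 repeat 1 (-0.34, adjusted p = 0.00757). The ligand gene Il15 fell with both hairpins, by 0.55 and 0.99 (adjusted p = 0.00475 and 2.31e-05).

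The hairpins differed from each other at 7 of the 16 tested genes, against 29.1% of all genes. Il17re, Il17rc, Il6ra and Il13ra2 were lower with hairpin 2 than with hairpin 1, and Il1r1, Il1rl2 and Il1rap were higher. All 3 IL-1 family calls between the hairpins were thus higher with hairpin 2, and both IL-17 receptor calls lower. Over all genes 11.6% were called higher and 17.4% lower. The other tested IL-1 family gene, Il18rap, lay the other way without being called (-0.21, limma adjusted p = 0.145). Il17ra was level (0.0094). The Il1rap difference came with a fall under hairpin 1 (-0.66), while hairpin 2 was near scrambled (-0.019). The Il1r1 call was lost with the mean of its probe sets (0.15, limma adjusted p = 0.227). The share of all genes called with both hairpins, or with 1 alone, was not computed, so the following counts have none beside them. Il17re and Il1r1 were the 2 members called higher with both hairpins, 0 were called lower with both, 3 passed the threshold with hairpin 1 alone and 4 with hairpin 2 alone. This split is by threshold only: of those 4, Il4ra and Il10rb did not differ detectably between the hairpins (0.21 and -0.058, limma adjusted p = 0.144 and 0.654). The hairpin comparisons share the scrambled arrays, so a common direction is not independent between them.

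**Figure D4:**
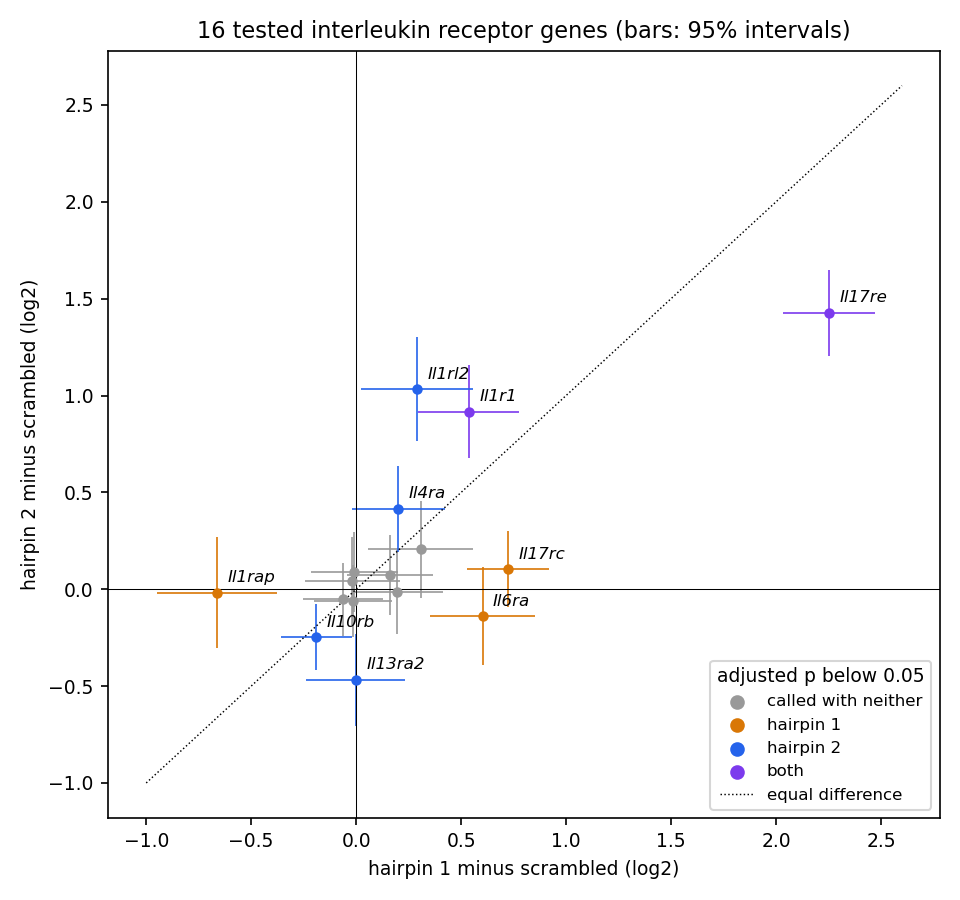
Difference from scrambled (log2) of the 16 tested interleukin receptor genes with hairpin 1 (x axis) and hairpin 2 (y axis); bars are 95% intervals, colours show which hairpin was called, and the dotted line marks equal differences. On its chosen probe set Il17re (2.25, 1.43) lies apart from the rest. Il1r1 (0.54, 0.92) and Il1rl2 (0.29, 1.03) lie above the line, and Il17rc (0.72, 0.10) and Il6ra (0.60, -0.14) below it. On its probe set that is brighter on scrambled arrays (not plotted) Il17re differed by 0.69 and 0.33. That hairpin 1 value lies below Il17rc.

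Genes that act with these receptors went both ways, and their counts stand beside the shares of all genes tested: 23.7% higher and 9.23% lower (33% in all) with hairpin 1, and 21.5% higher and 13.3% lower (34.8% in all) with hairpin 2. Of the 4 IL-17 ligand genes measured, only Il17b passed the filter, and it was called with neither hairpin; Il17c and Il17f were not analysed here. Of 15 genes for IL-17 signal transducers, hairpin 1 gave 0 calls higher and 6 lower, and hairpin 2 gave 1 higher and 4 lower. Their median differences were -0.048 and -0.057, and 9.23% and 13.3% of all genes were called lower. Some of these calls were not stable. The fall of Traf6 with hairpin 1 (-0.26) became -0.033 with the mean of its probe sets (limma adjusted p = 0.749). This fall and that of Traf3ip2 (-0.32) lost the call without scrambled repeat 1 or 2 or hairpin 1 repeat 1, among other settings. Tab3, lower by 0.38 with hairpin 2, lost its call without repeat 1 or 2 of scrambled or of hairpin 2. Usp25, the gene of a deubiquitinase that restrains IL-17 signalling, read 10.23 ± 0.18 (SD, n = 3, as for the others) on the scrambled arrays, 8.23 ± 0.51 under hairpin 1 and 8.60 ± 0.20 under hairpin 2. It fell by 2.00 and 1.63 log2 units (limma adjusted p = 8.27e-07 and 4.28e-06). Tnfaip3, which encodes the NF-kappa B brake A20, fell by 1.01 and 0.64 (adjusted p = 6.69e-07 and 4.59e-05), and the adaptor gene Tab2 by 0.43 and 0.25, the second lost without scrambled repeat 1 (adjusted p = 0.0536). Ikbke, a kinase gene, rose by 0.50 under hairpin 2 (adjusted p = 0.00141), while its hairpin 1 difference was -0.027.

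Of 19 known IL-17 target genes, 12 were tested. Hairpin 1 gave 3 calls higher and 4 lower, hairpin 2 gave 2 higher and 4 lower, and the medians were -0.0043 and -0.11, beside 33% and 34.8% of all genes called. The neutrophil chemokine gene Cxcl5 rose by 0.56 and 2.13 (limma adjusted p = 0.0041 and 3.15e-09). Cebpd, a transcription factor gene, rose by 0.65 with hairpin 2 (adjusted p = 2.25e-05). The chemokine gene Ccl7 fell by 1.99 with hairpin 1 (adjusted p = 6.76e-09) and by 0.36 with hairpin 2 (adjusted p = 0.0286), the second lost without scrambled repeat 1 or 3 (0.157 and 0.0769) or hairpin 2 repeat 1 (0.126).

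Of the 6 tested IL-1 and Toll adaptor and kinase genes, 2 were called higher and 1 lower under hairpin 1, then 0 and 2 under hairpin 2 (medians -0.022 and -0.21), beside 33% and 34.8% of all genes called. Myd88, the adaptor of IL-1 and Toll-like receptors, fell by 0.57 with hairpin 2 (limma adjusted p = 1.06e-05). Its fall of 0.21 with hairpin 1 (adjusted p = 0.032) was lost without any of the 3 scrambled arrays (0.0727, 0.0933 and 0.121). Irak2, a kinase gene of the same pathway, fell by 0.71 with hairpin 2 (adjusted p = 0.000238). Peli2, an E3 ligase gene, rose by 0.54 with hairpin 1 (adjusted p = 0.000784), and of the IL-1 family ligand genes Il1b and Il18 were tested and called with neither hairpin.

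Of 6 tested genes for shared cytokine receptor chains, 0 were called higher and 1 lower under hairpin 1, then 1 and 2 under hairpin 2 (medians 0.029 and 0.025), beside the same shares of 33% and 34.8% of all genes. The oncostatin M receptor gene Osmr fell by 0.68 and 0.74 (limma adjusted p = 1.89e-05 and 4.65e-06). Crlf2, the TSLP receptor gene, rose by 0.29 with hairpin 2 (adjusted p = 0.0102), a call lost without scrambled repeat 2 (0.0702). Of 11 tested genes in a list of class I and II cytokines, which also holds Il34, 1 was called higher and 2 lower under hairpin 1, then 0 and 3 under hairpin 2 (medians -0.011 and -0.14), again beside 33% and 34.8% of all genes. The riser was the cardiotrophin gene Ctf1 (0.38, adjusted p = 0.00217), and Il34, whose product binds the CSF-1 receptor and is no class I or II cytokine, fell by 0.43 with hairpin 2 (adjusted p = 0.00113).

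Among 19 tested genes for JAK kinases, STAT factors and their feedback inhibitors, hairpin 1 gave 6 calls higher and 2 lower, and hairpin 2 gave 3 and 3 (medians 0.055 and -0.0045), beside 33% and 34.8% of all genes called. Stat2, a mediator of type I interferon signalling, fell by 0.79 log2 units under hairpin 1 and fell by 1.94 under hairpin 2 (limma adjusted p = 6.23e-05 and 1.53e-09). Stat3, the main STAT of IL-6 receptors, rose by 0.37 and 0.57 (adjusted p = 0.00867 and 0.000245), the first lost without hairpin 1 repeat 3 (0.0546) or when its probe sets were averaged (0.15, adjusted p = 0.141). Pias3, a gene for an inhibitor of STAT3, rose by 0.47 and 0.50 (adjusted p = 0.00169 and 0.000779), and the feedback gene Cish fell by 0.47 under hairpin 2 (adjusted p = 0.000118). Of the 4 interferon receptor genes, 0 were called higher and 1 lower under hairpin 1, then 0 and 3 under hairpin 2 (medians -0.038 and -0.36), beside 9.23% and 13.3% of all genes lower. Ifngr2 fell by 0.52 and 0.80 (adjusted p = 0.0018 and 2.89e-05) and Ifnar2 by 0.43 under hairpin 2 (adjusted p = 3.1e-06).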

How the data were processed

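Total RNA of the cells on 9 arrays went through NuGEN amplification and biotin labelling, per the labels. The deposited values are log2 signals per probe set that the authors computed with RMA, which subtracts background, equalizes arrays and summarizes probes, per the submitters' processing notes (no version given). This equalizing hides a shift shared by all genes. Values lay between 3.90 and 15.0, and array medians between 6.31 and 6.38.

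Of 45101 probe sets, 64 controls were left out, and 34945 named 1 gene symbol. The probe set with the highest mean stood for a gene. A linear model of the 3 groups was fitted to 12735 genes with limma 3.58.1 in R 4.3.3 (eBayes with trend, two-sided). Intervals are 95%. The members and gene lists were chosen with earlier results of these data known. Named genes were all members and up to 4 called genes a list by smallest p, plus the 3 genes on each side of Il17re. Traf6, Traf3ip2 and Tab3 were named in addition, to give their lost calls. Alternatives covered filter, normalization, probe sets, weights, block and left-out arrays. The fit was tested on simulated data with 200 of 12735 genes changed. Hairpin 1 and hairpin 2 calls recovered 94% and 90% of changes of 0.5 log2 units and 100% of larger ones. Of the calls, 10 of 204 and 9 of 199 were false. The simulation drew independent noise, changed the same genes equally with both hairpins and left out the filter and the choice of probe set. These rates need not hold for the real data, where 33% and 34.8% of all genes were called. The number of arrays, 3 a group, limits precision.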

Additional observations from a re-analysis of the deposited data

Results flagged for a closer look

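The effect of the hairpins, each against scrambled, differed between hairpin 1 and hairpin 2 at 7 interleukin receptor genes, by the limma test of hairpin 2 minus hairpin 1 on all 9 arrays. Il17re differed by -0.83 log2 units (adjusted p = 2e-05), Il6ra by -0.74 (0.000202), Il17rc by -0.62 (0.000101) and Il13ra2 by -0.47 (0.00482). Il1rl2 differed by 0.74 (0.000341), Il1rap by 0.64 (0.00197) and Il1r1 by 0.38 (0.019). When all probe sets of a gene were averaged, the differences were smaller for Il17re (-0.53), Il6ra (-0.48), Il17rc (-0.27), Il1rl2 (0.42), Il1rap (0.20) and Il1r1 (0.15), and the last was no longer called. With 3 arrays a group, no group was large enough to call a single array an outlier, but each array was left out in turn. Without hairpin 1 repeat 1, the all-gene hairpin 1 calls went from 3023 higher and 1176 lower to 4087 and 1336. Without hairpin 1 repeat 2 they were 2258 and 1102, and without repeat 3 they were 2277 and 934.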

How the results depend on the processing

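The 18 calls of interleukin receptor genes were refitted under the alternatives, 319 refits in all, of which 310 kept direction and threshold, 9 lost the threshold and 0 reversed. Each lost call is given beside its gene in the report. Array quality weights raised the hairpin 1 count from 5 to 11, adding Il10rb, Il13ra2, Il15ra, Il18rap, Il31ra and Il4ra. Over all 12735 genes they raised the hairpin 1 calls from 3023 higher and 1176 lower to 5238 and 2222. The member count between hairpins went from 7 to 9, and the all-gene calls from 1483 higher and 2219 lower to 2178 and 3812. The cause was not tested. With single arrays left out the counts ran from 5 to 7 with hairpin 1, from 5 to 6 with hairpin 2 and from 6 to 8 between hairpins. A filter at the 50th percentile left 4 of the 6 hairpin 2 calls, since fewer genes were tested. Averaging all probe sets kept 4 calls with each hairpin. Among genes of the lists, Peli2 turned from -0.44 to 0.017 for hairpin 2 minus hairpin 1 with the mean of its probe sets. Equal repeat numbers gave no clear pairing of the arrays, and with so few arrays the check cannot exclude one. Deviations were correlated above 0.1 in 3 of 9 same-numbered pairs (range -0.29 to 0.25). An array matched its own number best in 7 of 18 comparisons. With a replicate block the counts were 6, 6 and 7 against 5, 6 and 7 without it. The added call was Il15ra with hairpin 1 (adjusted p = 0.0137), and the neighbour Creld1 lost its calls with hairpin 1 and between hairpins (0.0600 and 0.0628).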
